A study of Callorhinchus milii with 12 samples.

Results

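CG-dense windows are stretches of 2 kb in which the elephant shark (Callorhinchus milii) genome holds many CG dinucleotides. They were chosen from the calls of the 2 deep-sequenced livers added together. Neighbouring called positions were joined into CG sites, each scaffold was cut into windows of 2 kb laid end to end, and a window was taken when it held 80 or more CG sites and at least 100 calls, whatever its methylation. Of 257242 windows with at least 100 calls, 8847 were CG-dense, or 3.44%. They held 8.08% of the CG sites of all those windows and 9.68% of the calls. All 8881 windows with 80 or more CG sites had at least 100 calls, but 34 of them lay on the 5 scaffolds with an overall methylation level under 20% and were left out. Levels entered the choice only through this last step, in which the scaffolds left out reached 15.2% at most and those kept started at 41.2%.

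The libraries were made from the liver DNA of 1 adult female and 1 adult male, obtained through fishermen from animals that had recently died, by post-bisulfite adaptor tagging. Bisulfite converts unmethylated cytosines, so that each read shows for each cytosine whether it was methylated. The female library held 30080951 CG calls and the male library 38128530. With 1 library per sex there is no replicate, nothing was tested between the sexes, and the intervals given below are 95% intervals for counting error only. The other 10 libraries of the study are low-coverage libraries of liver, pancreas and spleen without positions in the files and were not used here. No annotation or sequence of the assembly (6.1.3) was used, so the genes at the windows and the tissue label were not checked, and the sequences of the windows are not shown.

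In vertebrate genomes most CG dinucleotides are methylated, and methylated cytosine mutates readily to thymine, so that CG dinucleotides have become rare. CpG islands, where CG dinucleotides have stayed frequent, often lie at promoters and are usually free of methylation, and methylation there goes with silencing of the gene. CG-rich sequence can also be found in young transposable elements and in GC-rich parts of a genome, where it is often methylated. How many CG dinucleotides a window holds therefore does not by itself tell which kind of sequence it is.

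Most CG-dense windows in these livers were methylated. Their median level was 78.1% (interval 77.7% to 78.5%), with quartiles at 57.7% and 87.2%, and 44.8% of them (3961 windows, interval 43.7% to 45.8%) were methylated at 80% or more. Over all windows with at least 100 calls this share was 37.8%. A level under 20%, called unmethylated below, was found in 1167 CG-dense windows, or 13.2% (interval 12.5% to 13.9%), against 2.72% of all windows. The remaining 3719 windows, or 42.0%, lay at 20% to under 80%, where 59.4% of all windows lay. CG-dense windows thus stood at both ends of the scale more often than other windows did. Their levels had an SD of 28.7 points, against 19.3 points in windows of 40 to 79 CG sites and 17.3 points in windows under 40 CG sites.

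**Figure D1:**
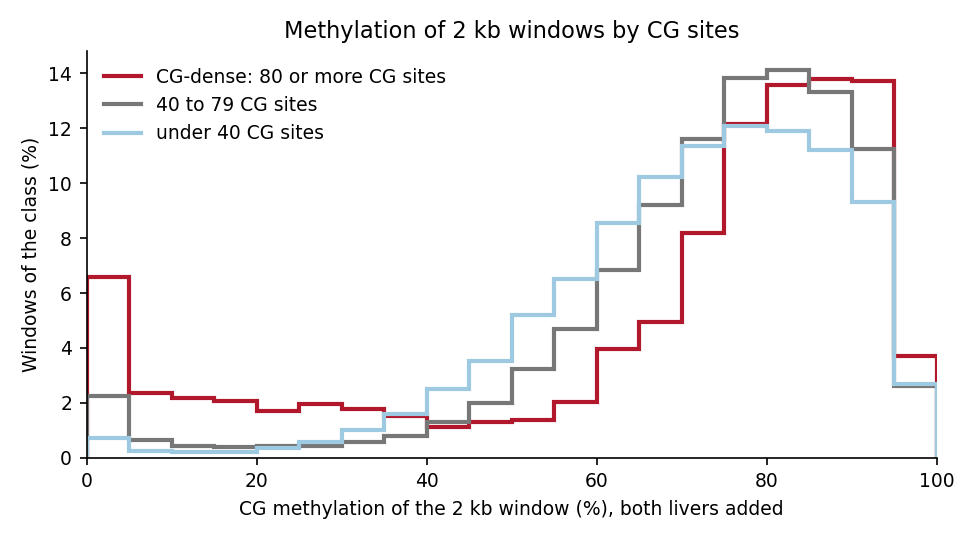
Methylation level of 2 kb windows (x axis, percent, in equal bins) as the share of the windows of each class (y axis, percent), for 8847 CG-dense windows, 100213 windows of 40 to 79 CG sites and 148182 windows under 40 CG sites. CG-dense windows have a small peak under 5%, which holds 582 windows or 6.58%, and a broad one above 70%. Under 5% lie 2.26% of windows of 40 to 79 CG sites and 0.721% of windows under 40.

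The low class held many windows with almost no methylation, but not only such windows. Its median was 5.10%, and 582 of its 1167 windows lay under 5%. Of the unmethylated windows of 40 to 79 CG sites, 2269 of 3780 lay under 5%, and of those over all windows 3919 of 6995. The high class had a median of 88.2%, and 1541 of its windows lay at 90% or more. The middle class was placed toward the upper end, with a median of 69.5%. The low windows had the most CG sites, with a median of 97 (quartiles 88 and 114), against 90 in both the middle and the high class.

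The share of unmethylated windows grew with the number of CG sites. It was 8.74% in windows of 80 to 89 CG sites, 12.8% at 90 to 99, 16.3% at 100 to 119, 28.6% at 120 to 149 (185 of 646 windows, interval 25.3% to 32.2%) and 40.2% at 150 or more (47 of 117 windows, interval 31.7% to 49.2%). Below the limit it was 6.34% at 70 to 79 CG sites and 1.62% at 30 to 39. The share of highly methylated windows went another way. It increased with CG sites up to 47.3% at 80 to 89 and was 37.2% at 120 to 149 and 36.8% at 150 or more. The median level was 79.1% at 80 to 89 CG sites, 64.7% at 120 to 149 and 42.0% at 150 or more. Levels on both sides of the limit were close. The 993 windows with 80 or 81 CG sites had a median of 78.9% and the 1179 windows with 78 or 79 had 78.7%.

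**Figure D2:**
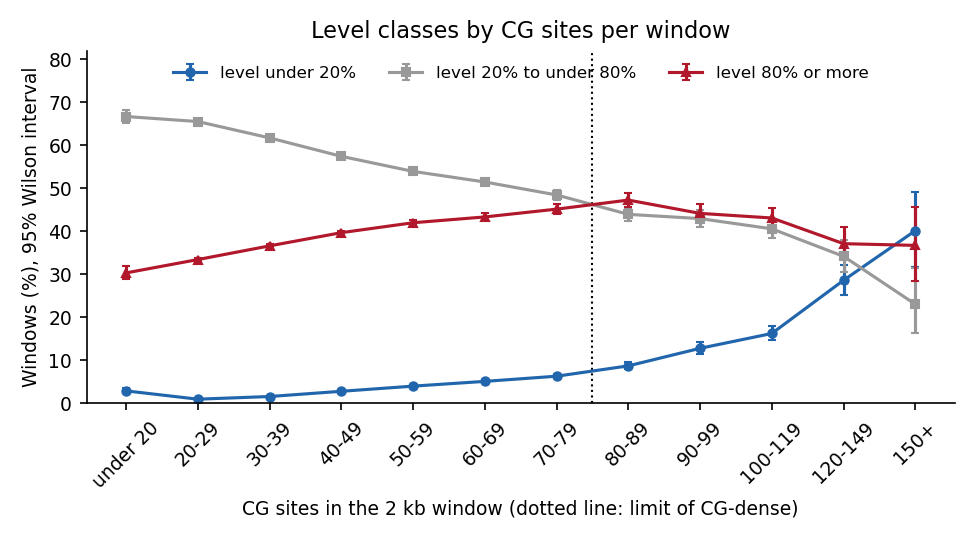
Share of windows in each level class (y axis, percent, bars are 95% Wilson intervals) by the number of CG sites in the window (x axis), both livers added. To the right of the dotted line, at 80 CG sites, windows under 20% become more frequent with each step, up to 40.2% at 150 or more CG sites, while windows at 20% to under 80% become rarer.

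The number of CG sites is the number that received a call, so it depends on coverage. CG-dense windows had a median of 568 calls, and of 6.13 calls per CG site, 1.19 times the median over all windows. This was 6.74 calls per site in the low class, 5.80 in the middle class and 6.40 in the high class. Only 15 CG-dense windows, or 0.170%, had 3 or more times the median calls per site, where 0.0925% of all windows did. The part of coverage in the difference between the classes was not tested.

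Of the 3 windows with the most CG sites, 2 had very low levels and 1 was mixed. The one with the most, 298, lay on scaffold NW_006890322.1 at positions 296001 to 298000 and had 2.70% methylation in the female liver (1372 calls, interval 1.96% to 3.69%) and 3.39% in the male liver (2067 calls, interval 2.69% to 4.26%). Its surroundings 4 to 20 kb away had a mean of 75.2%. The next, with 280 CG sites, lay on NW_006890055.1 at 15468001 to 15470000 and had 2.40% methylation in the female liver and 1.75% in the male liver, with no bin of 200 bp above 3.26%. In the first the bins reached 16.0%, so both were low along their whole length, in methylated surroundings. The third, with 262 CG sites, lay on NW_006890086.1 at 6116001 to 6118000 and held both, with bins between 12.0% and 91.1%. The female liver had 24.4% there and the male liver 41.9%, at 3.02 times the median calls per site. Coverage was high in the first 2 windows as well, at 2.25 and 2.26 times that median.

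Windows with somewhat fewer CG sites, up to 208, could be almost fully methylated. The highly methylated window with the most CG sites, 208, lay on NW_006890089.1 at 990001 to 992000, with 96.4% in the female (506 calls) and 96.5% in the male (1132 calls), and its bins lay between 94.2% and 99.0%. The next, with 201 CG sites on NW_006890346.1 at 364001 to 366000, had 95.5% (female) and 94.8% (male). In the middle class, the window with the most CG sites at ordinary coverage, 202 on NW_006890098.1 at 4646001 to 4648000, had 31.2% in the female (interval 27.8% to 34.9%) and 13.1% in the male (interval 11.1% to 15.5%). The next there, with 187 on NW_006890296.1 at 12001 to 14000, had 80.5% (female) and 71.9% (male).

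What lay around the windows differed between the classes. Around most unmethylated CG-dense windows the level was high within a few kb. At a distance of 2 kb the median level had already reached 65.6% on one side and 59.9% on the other, and at 4 kb it was 79.05% and 79.5%. The spread was wide, since 26.04% and 27.0% of the adjoining windows were under 20% themselves, and 14.5% and 15.2% of those at 4 kb. Around unmethylated windows of 40 to 79 CG sites the levels were lower, with medians of 11.6% and 11.1% at 2 kb and 39.1% and 39.6% at 4 kb. The highly methylated CG-dense windows stood only a little above their surroundings, at 88.2% against 84.6% and 84.7% at 2 kb. Highly methylated windows of 40 to 79 CG sites were similar, at 87.4% against 84.4% and 84.2%, and both sets were chosen for a high level. For CG-dense windows, the mean level 4 to 20 kb away had a median of 77.5% around unmethylated windows and 79.5% around highly methylated ones. Its 5th percentile was 24.2% around unmethylated windows and 69.2% around highly methylated ones, so that some unmethylated windows lay in surroundings of low methylation. Of 1126 unmethylated windows with enough measured surroundings, 1071 lay 20 points or more below them, a count largely fixed by their own low level. Of the 3604 windows in the middle class, 963 did and 20 lay 20 points or more above.

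The number of CG sites around the windows differed between the classes as well. Unmethylated CG-dense windows had a median of 39 and 38 CG sites in the windows next to them, and of 30 at 20 kb on both sides. The median over all windows with at least 100 calls was 37. Surrounding windows needed only 50 calls, so these medians cannot be set directly against it. Unmethylated windows of 40 to 79 CG sites had similar surroundings, with 41 and 41 next to them and 29 and 30 at 20 kb. Highly methylated CG-dense windows lay in DNA that was CG-rich throughout, with medians of 68 and 68 in the adjoining windows and 55 at 20 kb on both sides. The middle class of CG-dense windows was nearer to these, with 62 and 63 next to it and 53 and 54 at 20 kb. Highly methylated windows of 40 to 79 CG sites had 43 and 43 next to them and 40 at 20 kb on both sides.

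**Figure D3:**
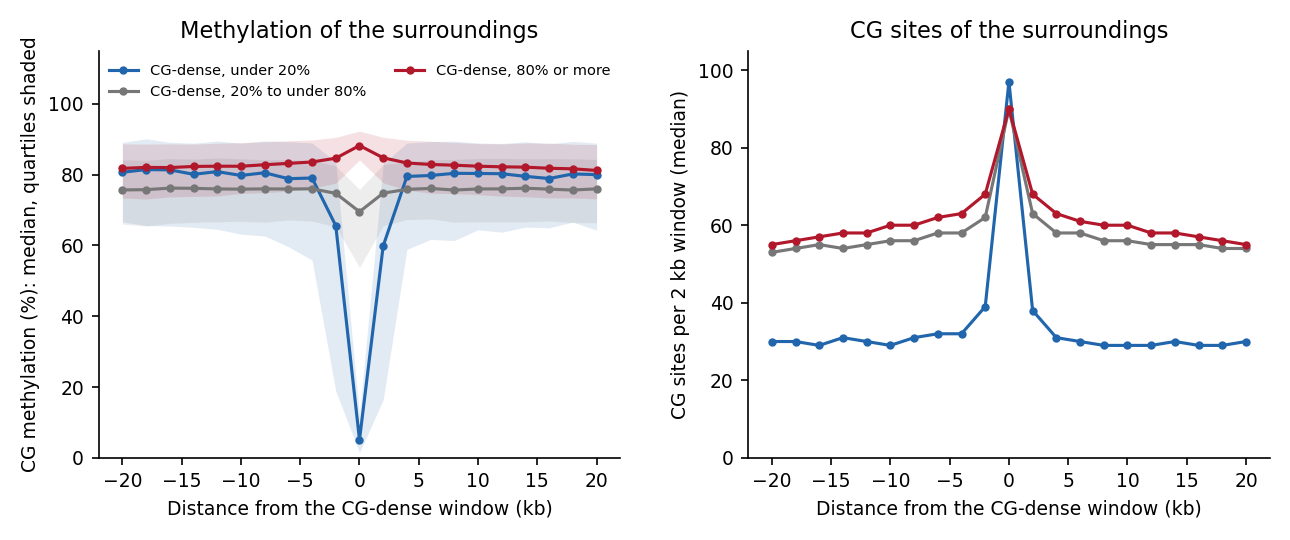
Median methylation with quartiles shaded (left, percent) and median CG sites per 2 kb window (right) at each distance from a CG-dense window (x axes, kb), for the 3 level classes, over windows with at least 50 calls. Unmethylated windows form a dip whose median is back at 79.05% and 79.5% by 4 kb, and a peak of CG sites above a base of about 30, while highly methylated windows sit on a broad rise of CG sites.

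Taken by the mean number of CG sites in the windows 4 to 20 kb away, a split chosen after the values were seen, the share of unmethylated CG-dense windows was 57.4% where the surroundings had under 25 CG sites (152 of 265 windows, interval 51.3% to 63.2%). It was 51.5% at 25 to under 35 CG sites, 25.4% at 35 to under 45, 6.62% at 45 to under 55, 1.60% at 55 to under 65 and 1.05% at 65 or more (29 of 2771 windows, interval 0.730% to 1.499%). The number of CG sites within the windows themselves had medians between 88 and 95 in these groups. Among windows of 80 to 89 CG sites only, the share was 47.3% in the CG-poorest surroundings and 0.837% in the CG-richest. Each liver alone gave the same order, with 56.6% (female) and 56.8% (male) in the CG-poorest surroundings and 1.05% (both) in the CG-richest. Windows of 40 to 79 CG sites were unmethylated in 7.15% of cases in the CG-poorest surroundings and 1.09% in the CG-richest. A CG-dense window in CG-poor DNA was thus more often unmethylated than a less dense one there, whereas in CG-rich DNA both were rarely so.

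**Figure D4:**
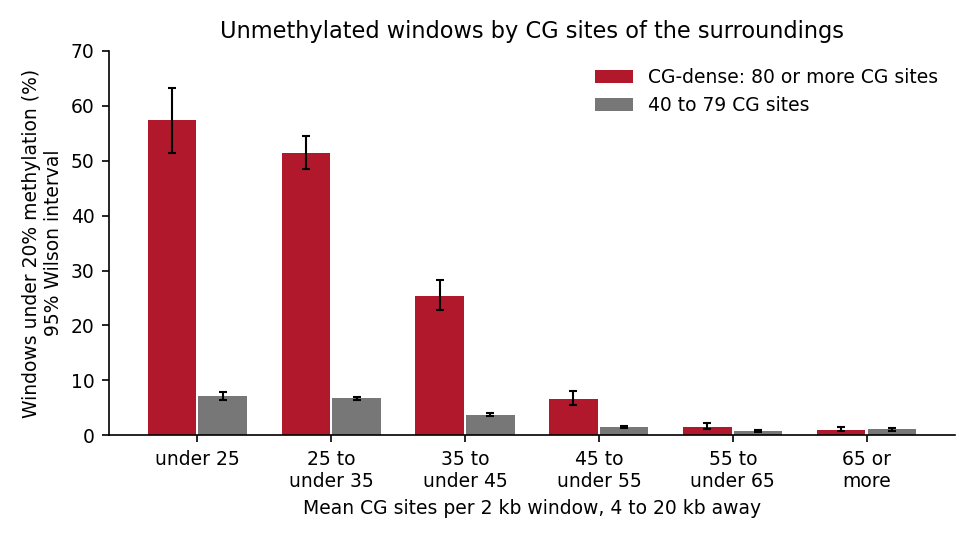
Share of windows under 20% methylation (y axis, percent, bars are 95% Wilson intervals) by the mean number of CG sites in the 2 kb windows 4 to 20 kb away (x axis), for CG-dense windows and windows of 40 to 79 CG sites. The share in CG-dense windows is 57.4% in the CG-poorest surroundings and 1.05% in the CG-richest.

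CG-dense windows often lay side by side. Of the 8847, 3495 windows or 39.5% adjoined another one, and the longest runs had 10 windows. Windows on their own were unmethylated in 19.2% of 5352 cases, those in pairs in 7.09% of 1790 and those in runs of 3 or more in 0.821% of 1705. Highly methylated windows made up 38.2%, 52.3% and 57.3% of the same groups. The windows of a pair were in the same level class in 623 of 895 pairs, and in 12 pairs an unmethylated window adjoined a highly methylated one. No such share is given here for other adjoining windows, so whether this is particular to CG-dense pairs is not shown.

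The 3 longest runs were all methylated. The 20 kb on NW_006890099.1 from 138001 to 158000 held 1097 CG sites in 10 windows, with a level of 74.5% in each liver and windows between 57.96% and 84.6%. The 20 kb on NW_006890160.1 from 1302001 to 1322000 held 964 CG sites, with 74.8% in each liver. The 18 kb on NW_006890310.1 from 474001 to 492000 held 986 CG sites, with 72.9% (female) and 76.1% (male). Their coverage was ordinary, with a median between 1.10 and 1.21 times the calls per site of all windows.

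The windows were unevenly spread over the scaffolds. They were found on 302 of 325 scaffolds, and 31 scaffolds held 50% of them. The largest numbers were on NW_006890123.1 (257 windows), NW_006890145.1 (234) and NW_006890097.1 (230), whose CG-dense windows had median levels of 80.6%, 70.5% and 80.3%. Among 104 scaffolds with at least 20 CG-dense windows, this median lay at 80% or more on 51 and under 20% on 8. The scaffolds at both ends were named after their values were seen. The lowest was 8.33% on NW_006890056.1, a scaffold with 11.5 CG sites per kb and an overall level of 66.3%, where 73.3% of the 60 CG-dense windows were unmethylated. The highest was 92.8% on NW_006890356.1, a scaffold with 30.3 CG sites per kb and an overall level of 89.9%, with none of its 48 windows under 20%. Across the 104 scaffolds the median level of CG-dense windows was correlated with the CG sites per kb (Pearson's r of 0.656, Spearman's rho of 0.593). It was also correlated with the overall level (r of 0.575, rho of 0.770). That level includes the calls of the CG-dense windows themselves, so a part of this correlation is built in. These values only describe scaffolds measured in the same libraries. Of all CG-dense windows, 2.498% lay within 10 kb of an end of the called scaffold, against 1.02% of all windows.

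Inside the windows, CG sites with at least 5 calls were mostly at one end of the scale. In the unmethylated class 91.2% of 77479 sites were under 20%, and in the highly methylated class 82.7% of 241285 sites were at 80% or more. These shares are largely fixed by the limits of the classes, and were 91.1% and 81.5% in windows of 40 to 79 CG sites. The middle class was a mixture. Of its 203184 sites 46.1% were at 80% or more and 18.7% under 20%, against 43.4% and 8.31% in windows of 40 to 79 CG sites of the same level class. In bins of 200 bp, 34.7% of 3260 windows of the middle class held both a bin under 20% and a bin at 80% or more, against 14.5% of 31327 such windows of 40 to 79 CG sites. In 175 of the 3260 no bin was at either end. The class is wide, and levels within it were not matched. Among windows with at least 50 calls in each liver, 617 CG-dense ones lay at 20% to under 40% and 2586 at 60% to under 80%. In windows of 40 to 79 CG sites these numbers were 2203 and 41252. The part of level in the differences was not tested. Edges were also found in the unmethylated class. There, 279 of 683 windows with enough calls in 8 of the 10 bins, or 40.8%, held a bin at 80% or more. In unmethylated windows of 40 to 79 CG sites 94 of 1001 did, or 9.39%. Enough bins were measured in 683 of 1167 unmethylated CG-dense windows and in 1001 of 3780 of the less dense ones. Unlike parts of each class were thus compared, and levels were not matched here either.

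Single reads carry the pattern of 1 DNA molecule. Of reads with at least 3 CG calls inside an unmethylated CG-dense window, 84.5% had no methylated call, 3.83% had only methylated calls and 11.7% were mixed. In the middle class 17.9% had none, 35.1% had only methylated calls and 47.0% were mixed, and in the high class the shares were 1.77%, 63.6% and 34.6%. Reads with more CG sites are more easily mixed, so reads with exactly 6 calls were compared as well. In the middle class 13.4% of 43899 such reads in CG-dense windows had no methylated call, against 8.75% of 211628 in windows of 40 to 79 CG sites. In the unmethylated class, reads with 3 calls had only methylated calls in 12.8% of cases in CG-dense windows, against 3.72% in windows of 40 to 79 CG sites, and reads with 6 calls in 3.77% against 1.09%. Levels within a class were not matched in these comparisons.

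The CG sites of CG-dense windows lay a median of 11 bp from the next, a closeness that the minimum of 80 CG sites itself fixes. Between the level classes, which the choice did not use, it differed. In the unmethylated class it was 8 bp, and 19.2% of the distances were 3 bp or less. In the highly methylated class it was 12 bp with 10.2% of such distances. This difference was not particular to CG-dense windows. In windows of 40 to 79 CG sites the medians were 15 bp (unmethylated) and 21 bp (highly methylated), with 11.1% and 5.77% of such distances. In windows under 40 CG sites the medians were 23 bp and 33 bp. A fixed spacing, as in a short tandem repeat, was rarely found. The search took exact distances between the first called positions of CG sites. In CG-dense windows 67.3% of the CG sites had both positions called, against 58.3% in windows of 40 to 79 CG sites. Repeats can therefore be missed, and to unlike degrees. The shares below do not give the frequency of repeats and are not a like comparison of the classes. In 12 CG-dense windows, or 0.136%, at least 50% of the CG sites had another at 1 fixed distance between 20 and 500 bp. In windows of 40 to 79 CG sites this held for 16 of 100213, or 0.0160%. Among CG-dense windows it held for 0.0248% at 80 to 89 CG sites and 1.71% at 150 or more (2 of 117). The share depended on the limit, with 0.588% of CG-dense windows at 33.3% of the CG sites and 0.0113% at 66.7%. The distance was 57 bp in 2 of the 12, named after their values were seen, and these were also the windows with the most calls per site, 192 on NW_006890155.1 (2830001 to 2832000) and 131 on NW_006890087.1 (2252001 to 2254000). The window on NW_006890155.1 had 0.996% methylation (female) and 1.26% (male). That on NW_006890087.1 had 0.760% (female) and 1.36% (male). These 2 were not typical of the 12 windows, whose median was 67.3% for the level and 6.77 for calls per site. Of the 12, 16.7% were under 20% and 33.3% at 80% or more.

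The livers of both sexes had similar levels in most CG-dense windows. Of 8844 windows with at least 50 calls in each liver, 7832 or 88.6% differed by less than 10 points. This share was 80.5% in windows of 40 to 79 CG sites and 75.9% over all windows compared. Over the 8844 windows Pearson's r between the levels was 0.973 and Spearman's rho 0.935, across windows of 1 pair of libraries. Over all windows compared they were 0.895 and 0.851. Depth differs between these sets, so this is not a like comparison. The median level of the female liver was 77.7%, that of the male liver 78.6%. The median difference, female minus male, was -0.58 points (interval -0.67 to -0.50). In windows of 40 to 79 CG sites, with medians of 75.8% (female) and 78.02% (male), it was -1.64 points (interval -1.68 to -1.58). Within the level range of 60% to under 80% it was -0.77 points in CG-dense windows (interval -1.16 to -0.52) and -2.43 points in windows of 40 to 79 CG sites (interval -2.53 to -2.33). The lanes of 1 library share its preparation, so they show the spread between lanes only and not that between library preparations. All calls in CG-dense windows added gave 63.3% and 64.1% in lanes 1 and 2 of the female library and 65.0% and 65.7% in those of the male library. Without the 15 windows of highest coverage, this became 64.8% and 64.4% in the lanes of the female library and 66.4% and 66.0% in those of the male library. The female library had fewer calls, with a median log2 ratio of female to male calls of -0.43 in CG-dense windows and -0.32 over all windows, and the part of depth in these differences was not tested.

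**Figure D5:**
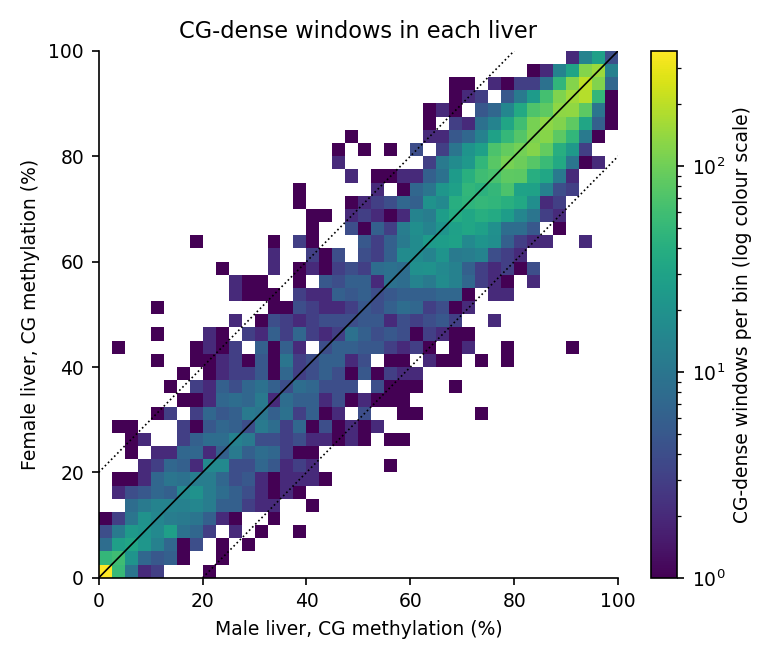
Methylation of each CG-dense window in the female liver (y axis, percent) and the male liver (x axis, percent), for 8844 windows with at least 50 calls in each, as the number of windows per bin on a log colour scale. The solid line marks equal levels and the dotted lines a difference of 20 points, and 151 windows lie at or beyond the dotted lines.

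Differences of 20 points or more were found in 151 CG-dense windows, or 1.71% (interval 1.46% to 2.00%), where 3.99% of all 223748 windows compared had one. Counting noise alone, with calls taken as independent, has an SD of 3.27 points in CG-dense windows, 5.04 points in windows of 40 to 79 CG sites and 5.97 points over all windows, so these shares cannot be compared without regard to depth. The female was lower in 81 of the 151 (0.916% of CG-dense windows, against 3.16% of all windows) and higher in 70 (0.791%, against 0.835%). They were most frequent in CG-dense windows at 40% to under 60%, at 10.5%, where the share over all windows of that level was 9.98%. No CG-dense window was under 20% in one liver and at 80% or more in the other, and 85.4% were in the same class in both. The absence of such windows was not particular to CG-dense ones, since none was found among all 223748 windows compared. Of these, 82.5% were in the same class in both livers. The largest differences in each direction are named after their values were seen. On NW_006890130.1 at 3188001 to 3190000 the female liver had 43.8% (281 calls, interval 38.1% to 49.6%) and the male liver 91.3% (265 calls, interval 87.3% to 94.1%). On NW_006890054.1 at 11186001 to 11188000 the female liver had 63.0% (81 calls, interval 52.1% to 72.7%) and the male liver 18.1% (138 calls, interval 12.6% to 25.4%). Each is 1 animal and 1 library, and differences between individuals, between the sexes and between library preparations cannot be told apart.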

How the data were processed

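The authors deposited, for each deep-sequenced liver, 1 line per CG cytosine and read with scaffold, position and a methylated or unmethylated call, without strand. Per the labels and the methods of the study, the authors used Trim Galore (0.4.0) for trimming, with 10 bp taken off the 5' end of reads, and Bismark (0.14.3) for alignment to scaffolds of assembly 6.1.3 above a length limit, then removed duplicates and extracted the calls. The study also added the calls of both livers. Here, runs of adjoining called positions were paired from the left into CG sites (13522973 sites from 20676135 positions, with 3950 runs of an odd number). A window's level is the share of its calls that are methylated. Low coverage is noisier, so differences between livers needed at least 50 calls in each, sites 5, bins of 200 bp 10 and surrounding windows 50. Each was compared with windows of 40 to 79 CG sites. Values of surroundings needed at least 10 measured windows. Shares have Wilson intervals and medians intervals from binomial order statistics. They take windows, reads or calls as independent, which neighbouring ones are not, and PCR copies left after removal of duplicates would narrow them further. The work was done in Python 3.11.15 with SciPy 1.17.1, pandas 2.3.3, Numba 0.67.0, NumPy 2.4.6 and Matplotlib 3.10.9, and the joining of sites and the search for fixed spacing were tested on simulated data.

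The windows, classes and lists were chosen with earlier results of these data known. The windows named are the 3 with the most CG sites, the 2 with the most in each level class at under 3 times the median calls per site, the 3 longest runs and the 3 scaffolds with most CG-dense windows, and any other is marked as picked after its values were seen. As alternatives there were other minimums of CG sites and calls, shifted windows, pairing from the right, no scaffold left out, windows of high coverage left out, each liver alone, the first listed call of each read and other limits. A gene table of a different assembly was not used here.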

Additional observations from a re-analysis of the deposited data

How the results depend on the processing

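No paired analysis was possible because there is 1 deep library per sex and no test was run. Of the values computed under alternatives, 77 stayed within the interval of the reported value (or within 1.5 times a count) and 38 moved. The difference between livers, the only value with a direction, stayed negative. A minimum of 200 calls, pairing from the right, keeping all scaffolds or leaving out windows of high coverage moved none. These settings gave 8845, 8847, 8881 and 8832 windows against 8847, so they could move little. Their values are counted among the 77 as well. Pairing from the right gave the same values as pairing from the left. A minimum of 50 calls could move none, because no CG-dense window had under 150 calls, but its values are counted among the 77.

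With a minimum of 60 CG sites there were 31168 windows. Of these 7.72% were under 20% and 48.1% at 20% to under 80%, the median difference between livers was -0.99 points, and there were 5.87 calls per site. 60.1% lay in runs and 0.0642% had a fixed spacing. With 100 CG sites there were 2588 windows. Of these 20.4% were under 20%, 38.2% at 20% to under 80% and 41.3% at 80% or more, with a median of 75.4%, a difference of -0.42 points, 6.42 calls per site, 23.5% in runs and 0.309% with a fixed spacing. In surroundings under 35 CG sites 60.6% of these were then unmethylated, against 52.6% at 80 CG sites, and in surroundings of 55 or more 2.02%, against 1.28%.

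Counting only CG sites with 2 or more calls, chosen after the values were seen, left 5649 windows with 14.7% under 20%, 39.2% at 20% to under 80%, 46.1% at 80% or more and a median of 78.6%, and 55.7% unmethylated in the CG-poorest surroundings of under 35. Windows without a CG-dense neighbour, chosen likewise, were unmethylated in 2.31% of cases where the surroundings had 55 or more CG sites. The first listed call of each read, which counts each read once whatever its number of calls, moved the levels as well. 9.52% were then under 20%, 54.6% at 20% to under 80% and 35.9% at 80% or more, with a median of 73.7%. These values were not taken over exactly the same 8847 windows as the main ones. The cause of the shift was not tested. The male liver alone had 40.7% at 20% to under 80%, 46.3% at 80% or more and a median of 78.6%, and the female alone a median of 77.7%. Windows shifted by 1 kb gave a difference between livers of -0.47 points. The share of windows with livers apart was 11.4% at 10 points and 0.249% at 30 points, and that with fixed spacing 0.588% at a limit of 33.3% of the CG sites and 0.0113% at 66.7%.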

Other observations

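The 15 CG-dense windows of highest coverage, named after their values were seen, held 1.77% of the calls in all CG-dense windows. Of these windows, 8 were methylated under 5% and 5 at 75% or more. The 3 deepest shared a best distance between CG sites of 57 bp and lay on 3 scaffolds. They were at 1.13% on NW_006890155.1, 1.08% on NW_006890087.1 and 3.90% on NW_006890068.1 (7896001 to 7898000). A best distance of 41 bp was found in 4 others.

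The lanes were unequal in these windows. Calls of lane 1 were 3.76 times those of lane 2 in the female library and 4.32 times in the male library over the 15 windows, against 1.17 times (female) and 1.20 times (male) in the other CG-dense windows. In the deepest window the ratios were 6.89 in the female and 8.61 in the male. Without the 3 deepest, they were 1.80 and 1.98 over the others. Duplicates had been removed by the authors, and what sets the lanes apart here was not tested.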
